A study of Mus musculus with 6 samples.

Results

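The ribosome biogenesis and RNA polymerase I genes are a set of 45 genes whose products make ribosomal RNA, modify and cut it, and load it with ribosomal proteins in the nucleolus. They were found by gene symbol among the 55401 Ensembl gene identifiers of the expression table, and all 45 were present and passed the filter on low counts, as did 16371 genes in all. The comparison is between BV2 cells given lipopolysaccharide (LPS), a component of the bacterial outer membrane that activates macrophages and microglia, in 3 libraries, and BV2 cells given vehicle, in 3 libraries (Vehicle). BV2 is a mouse microglial cell line immortalised with a retrovirus carrying the raf and myc oncogenes, and both groups share that background. The labels state no dose and no duration of the treatment. Nor do they state whether the libraries were made from independent cultures, and the p-values therefore reflect the variation among these 6 libraries only. The study's stated aim was to find regulators of microglial activation and inflammation.

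RNA polymerase I transcribes the ribosomal DNA repeats into a single long precursor. Small nucleolar ribonucleoproteins (snoRNPs) of the box C/D type guide ribose methylation of that precursor and those of the box H/ACA type guide its pseudouridylation, while large sets of processing factors cut it and fold it into the small and the large subunit. The pathway is one of the main targets of the transcription factor Myc and is tied to growth and proliferation. In macrophages and microglia, LPS is known to change both proliferation and the translation machinery.

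Estimated counts per library totalled 45969690 to 59023474. Levels are given as CPM, counts scaled to a library size common to all (TMM), and a gene was called changed at an adjusted p under 0.05 in edgeR's quasi-likelihood test with Benjamini-Hochberg adjustment over all 16371 genes. By that rule 2082 genes were higher and 1782 lower with LPS, or 1650 higher and 2258 lower when libraries were scaled by total counts alone. Microglia and macrophage markers summed to 2229, 2441 and 2790 CPM in LPS libraries and to 2791, 2767 and 3065 CPM in Vehicle libraries, and of the 11 markers 1 was called higher, 3 lower and 7 neither way. Cx3cr1, a defining microglial receptor, was low, at 0.66 to 1.70 CPM in LPS libraries and 2.11 to 2.51 CPM in Vehicle libraries. Astrocyte markers summed to 1.70 to 5.51 CPM with LPS and 3.82 to 7.80 CPM with Vehicle, neuron markers to 1.74 to 10.6 CPM and at most 9.82 CPM, fibroblast and endothelial markers to 2.24 to 4.37 CPM and 2.07 to 3.08 CPM. Oligodendrocyte markers summed to 36.0 to 42.7 CPM with LPS and 35.9 to 40.0 CPM with Vehicle, and 4 of 6 T and B cell markers were at 0 in every library. The part of other cell types in the results was not tested. LPS 3 stood apart from LPS 1 and LPS 2 for several gene groups below, and those results are given with and without it. Leaving out LPS 3 raised the calls over all tested genes to 2450 higher and 2085 lower. Leaving out any other single library lowered both counts.

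LPS-treated cells had less mRNA for a minority of these 45 genes, led by the polymerase I factor Ubtf and by the snoRNP proteins Nop58, Dkc1 and Nop10. Among the 45 genes, 10 were called lower with LPS (Ubtf, Nop58, Dkc1, Nop10, Utp20, Gnl3, Rrs1, Tsr1, Fbl and Ddx21), 1 was called higher (Nop14) and 34 were not called. The changes were modest, with log2 fold changes between -0.69 and 0.59, and 0 of the 45 genes reached a 2-fold change. In bulk RNA, fewer cells of a type and less RNA per cell cannot be told apart.

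The share called in either direction, 24.4%, lay close to the 23.6% of all tested genes. Their directions were uneven. The share called lower was 22.2%, against 10.9% of all tested genes, and the share called higher was 2.2%, against 12.7%. The median log2 fold change was -0.15, against -0.02 over all tested genes, with 32 genes below 0 and 13 above. Every LPS library lay below every Vehicle library for 16 of the 45 genes, where 20% of all tested genes did so, and above for 6, where 20.8% did so. The count called lower was 6 without Vehicle 1 and 5 without Vehicle 2, where the share over all tested genes fell to 6.75% and 6.15%. Without LPS 3 the count called higher was 3, and of the calls in either direction 6 were gained and 1 was lost. Over all tested genes 14.3% were then called higher and 12.1% lower. The number of calls thus changed with the library left out, as it did over all tested genes. The median stayed between -0.16 and -0.13 when any 1 library was left out.

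The genes that were not called are not thereby shown to be unchanged. For 31 of these 34 genes the 95% interval of the log2 fold change stayed inside a 1.5-fold change in either direction. The exceptions were Polr1c, with an interval of -0.21 to 0.77, Nob1, with -0.02 to 0.78, and Ncl, with -0.68 to -0.03. Fbl, Ddx21, Tsr1, Rrs1, Gnl3 and Utp20 were called at changes smaller than 1.5-fold, so the band is wider than some called changes. Of the genes inside it, Nhp2 (-0.51 to -0.03), Rrp1b (-0.53 to -0.07) and Ltv1 (0.04 to 0.44) had intervals that left out 0. These intervals are not adjusted for the number of genes.

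**Figure D1:**
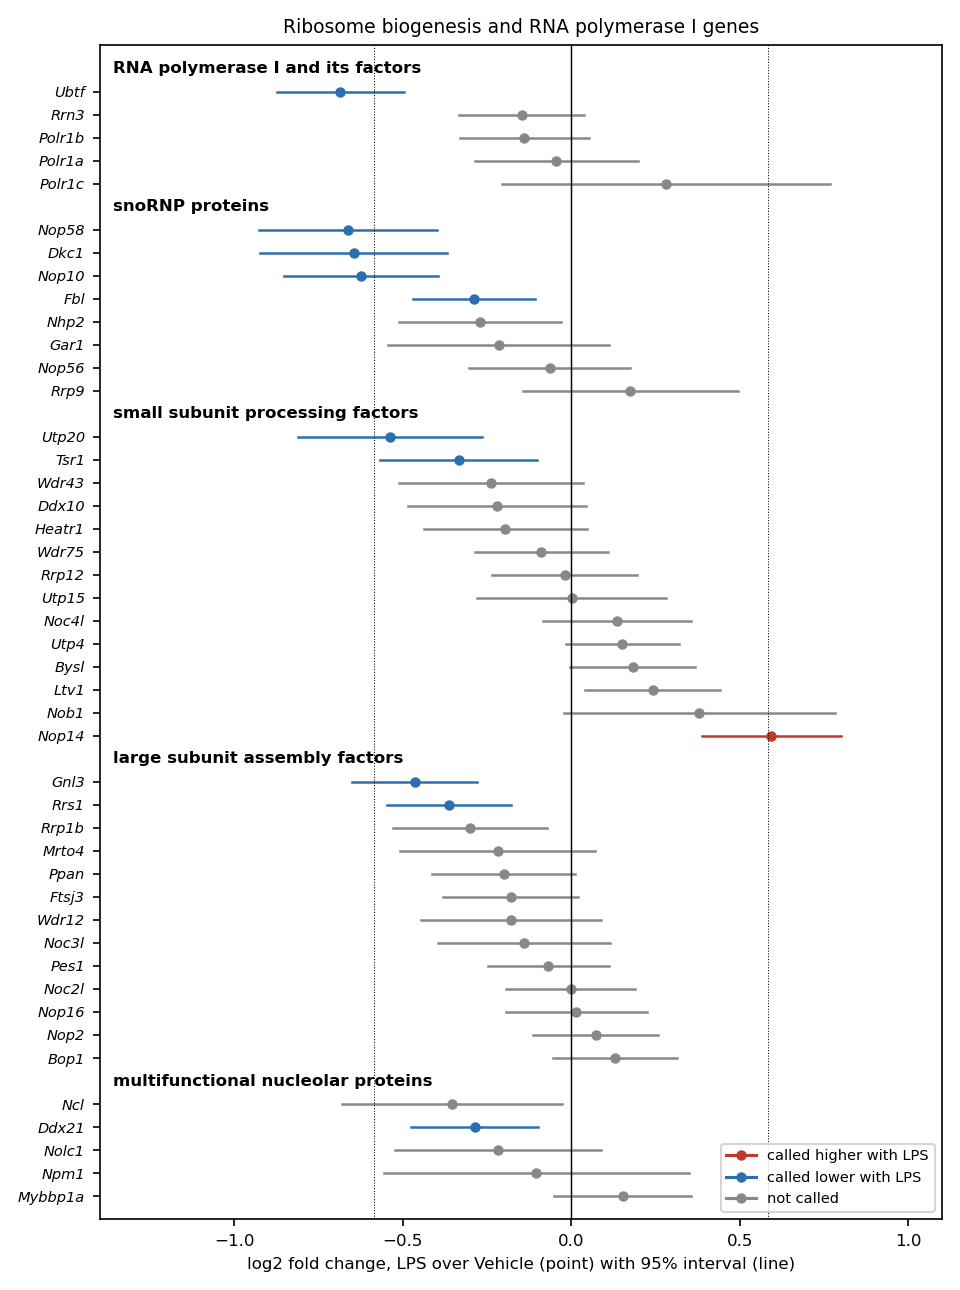
Fitted log2 fold change, LPS over Vehicle, of each of the 45 genes by role (points) with its 95% interval (lines); 3 libraries per group, and dotted lines mark a 1.5-fold change. Blue genes were called lower, the red gene higher and grey genes neither way, and the 4 lowest points are Ubtf, Nop58, Dkc1 and Nop10.

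The polymerase I genes differed from each other. Ubtf (ENSMUSG00000020923) encodes the upstream binding factor, which binds ribosomal DNA repeats and keeps them open for polymerase I. Ubtf stood at 118, 119 and 126 CPM in LPS libraries, against 193, 186 and 205 CPM in Vehicle libraries. The groups were far apart, and the 3 LPS libraries lay close together. Its log2 fold change of -0.69 ± 0.08 (SE, n = 3 per group here and throughout) was the lowest of the 45 genes, with an adjusted p of 0.000739 in edgeR's quasi-likelihood test. The call held under every alternative tried, with adjusted p up to 0.00576.

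Polr1a, which encodes the largest catalytic subunit of the enzyme, stood at 191, 190 and 234 CPM in LPS libraries and 222, 198 and 215 CPM in Vehicle libraries. These groups overlapped, with a log2 fold change of -0.04 ± 0.11 and an adjusted p of 0.799 in edgeR's quasi-likelihood test. Polr1b, for the second-largest subunit, had a log2 fold change of -0.14, and Rrn3, for the initiation factor that joins the polymerase to the promoter, had -0.15. Neither was called, although every LPS library lay below every Vehicle library for both. Polr1c, for a subunit shared with RNA polymerase III, had 103, 133 and 73.0 CPM with LPS and 90.9, 89.0 and 73.9 CPM with Vehicle. LPS 3 was the lowest of all 6 libraries for it, and without LPS 3 the gene was called higher, with a log2 fold change of 0.47 and an adjusted p of 0.0346 in edgeR's quasi-likelihood test. The count in this role was thus 1 lower (20%) and 0 higher of 5, with a median of -0.14. Over all tested genes 10.9% were called lower and 12.7% higher.

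The snoRNP proteins held the largest share of calls of the 5 roles. Of 8 genes, 4 were called lower (50%, against 10.9% of all tested genes) and 0 higher (against 12.7%), with a median of -0.28. Without LPS 3, when 12.1% of all tested genes were called lower and 14.3% higher, the multifunctional nucleolar proteins held the largest share. Of these 4 of 5 were called lower, while 4 of 8 snoRNP genes were called lower and 1 higher. Nop58 (ENSMUSG00000026020) encodes a scaffold protein of the box C/D snoRNP. Nop58 had 132, 150 and 175 CPM in LPS libraries, against 248, 251 and 224 CPM in Vehicle libraries. All LPS libraries were lower, with a log2 fold change of -0.66 ± 0.12 and an adjusted p of 0.00428 in edgeR's quasi-likelihood test. Fbl (ENSMUSG00000046865) encodes fibrillarin, the methyltransferase of the same particle. Fbl had 206, 207 and 194 CPM in LPS libraries, against 240, 243 and 259 CPM in Vehicle libraries. Its groups were also apart, by a smaller margin, with a log2 fold change of -0.29 ± 0.08 and an adjusted p of 0.0312 in edgeR's quasi-likelihood test. That call was lost without LPS 1, LPS 2, Vehicle 1, Vehicle 2 or Vehicle 3, each left out singly, with adjusted p between 0.0641 and 0.106 in edgeR's quasi-likelihood test.

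Nop56, the paired scaffold of Nop58 in the box C/D particle, was not called, at a log2 fold change of -0.06 ± 0.10. The log2 ratio of Nop58 to Nop56 CPM was -1.20, -1.18 and -0.60 in LPS libraries and -0.29, -0.34 and -0.56 in Vehicle libraries. The LPS libraries were all lower, and LPS 3 lay close to Vehicle 3. Rrp9, a component specific to the U3 snoRNP, had a log2 fold change of 0.17 and was not called. Without LPS 3 it was called higher, with 0.31 and an adjusted p of 0.0486 in edgeR's quasi-likelihood test.

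The box H/ACA particle has 4 core proteins. Dkc1 (ENSMUSG00000031403) encodes dyskerin, its pseudouridine synthase. Dkc1 stood at 101, 83.9 and 111 CPM with LPS, against 158, 165 and 140 CPM with Vehicle. The groups did not overlap, with a log2 fold change of -0.65 ± 0.12 and an adjusted p of 0.00611 in edgeR's quasi-likelihood test. Nop10 (ENSMUSG00000027133), a small protein that binds dyskerin, stood at 92.8, 85.2 and 85.9 CPM with LPS, against 127, 128 and 152 CPM with Vehicle. Nop10 was thus lower in every LPS library, with a log2 fold change of -0.62 ± 0.10 and an adjusted p of 0.00286 in edgeR's quasi-likelihood test. The calls of Nop58, Dkc1 and Nop10 held under every alternative.

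Nhp2, which binds the guide RNA of the same particle, was the most abundant snoRNP gene of the set, at 328, 356 and 279 CPM with LPS and 400, 396 and 365 CPM with Vehicle. Its groups were apart, but the gene was not called, with a log2 fold change of -0.27 ± 0.10 and an adjusted p of 0.100 in edgeR's quasi-likelihood test. With scaling by total counts alone it was called lower, with an adjusted p of 0.0273 in edgeR's quasi-likelihood test. Gar1, the remaining core protein, had a log2 fold change of -0.22 and was not called. Summed over the 4 core genes, the box H/ACA level was 592, 589 and 525 CPM with LPS, against 757, 753 and 733 CPM with Vehicle. Summed over Fbl, Nop56 and Nop58, the box C/D level was 642, 697 and 635 CPM with LPS, against 791, 812 and 813 CPM with Vehicle. Snu13, which also binds box C/D RNAs and is described below, was left out of the box C/D sum. Both sums were lower in every LPS library than in any Vehicle library.

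**Figure D2:**
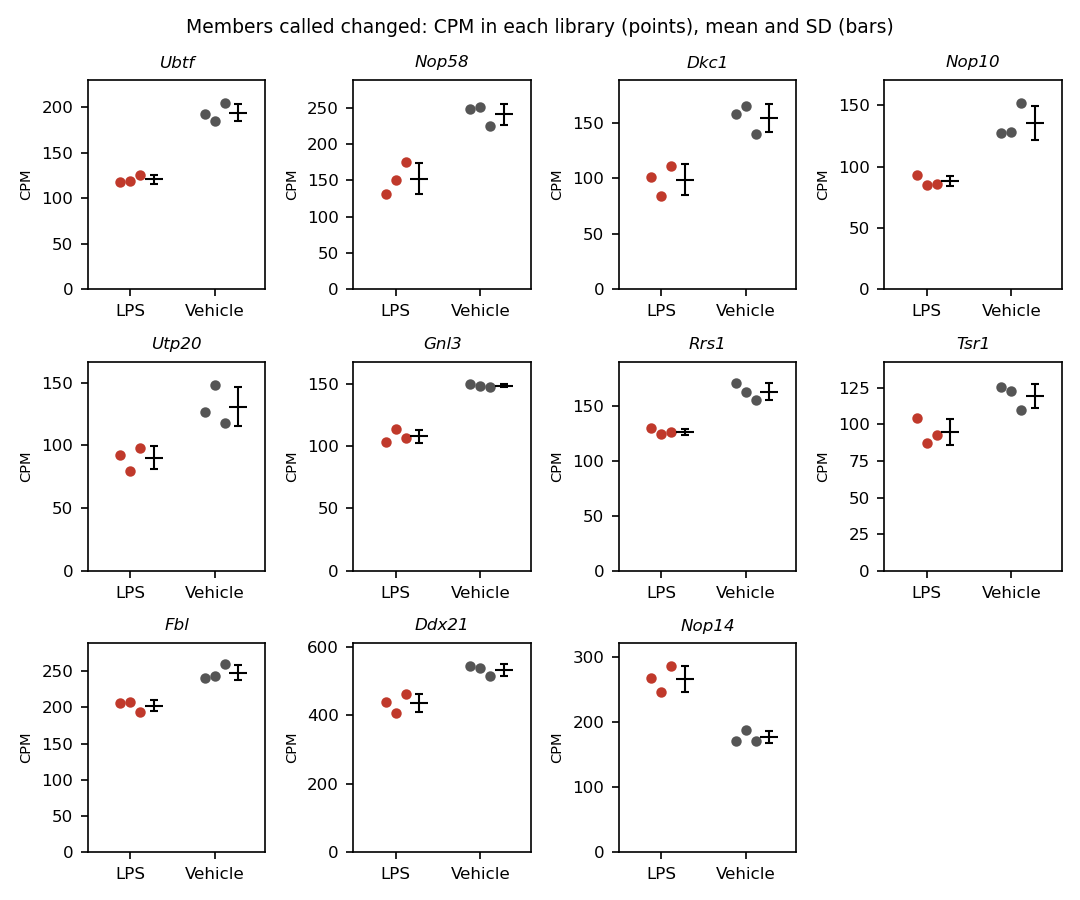
CPM of the 11 called genes in each of the 3 LPS and 3 Vehicle libraries (points), with the mean and SD of each group beside them (bars); each axis starts at 0. In every panel the groups are apart, with LPS below Vehicle in 10 genes and above it in Nop14.

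The small subunit processing factors were split, with a median of -0.01. Of 14 genes, 1 was called higher (7.1%, against 12.7% of all tested genes) and 2 lower (14.3%, against 10.9%). Nop14 (ENSMUSG00000036693) encodes a component of the small subunit processome that, in yeast, is bound by Noc4. Nop14 stood at 267, 246 and 286 CPM in LPS libraries, against 172, 187 and 171 CPM in Vehicle libraries. Over all libraries it was the only gene of the 45 called higher, with a log2 fold change of 0.59 ± 0.09 and an adjusted p of 0.00223 in edgeR's quasi-likelihood test. The call held under every alternative. An annotated antisense gene shares 5.3% of its exon bases, and the strand of the reads is not stated. Noc4l, the mouse gene related to Noc4, had a log2 fold change of 0.14 and was not called.

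Utp20 (ENSMUSG00000004356), a large scaffold protein of the pre-ribosome, had 92.2, 79.9 and 98.2 CPM with LPS, against 127, 148 and 118 CPM with Vehicle. The groups were apart, with a log2 fold change of -0.54 ± 0.12 and an adjusted p of 0.0128 in edgeR's quasi-likelihood test. Without Vehicle 2 its adjusted p was 0.0583 in that test.

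Tsr1 (ENSMUSG00000038335), a late assembly factor of the small subunit, had 105, 87.1 and 93.1 CPM with LPS, against 126, 123 and 110 CPM with Vehicle. Its log2 fold change of -0.33 ± 0.10 came with an adjusted p of 0.0463 in edgeR's quasi-likelihood test. The call was lost without LPS 2, LPS 3, Vehicle 1, Vehicle 2 or Vehicle 3, each left out singly, with adjusted p between 0.0609 and 0.156 in edgeR's quasi-likelihood test, and without a filter on low counts, with 0.061. Tsr1 shares 32.3% of its exon bases with Srr on the opposite strand, and Srr stood at 25.5 CPM or more in each LPS library, against at most 20.4 CPM in the Vehicle libraries, so reads of both genes may be mixed in either value. The count of small subunit factors called lower was accordingly 0 without Vehicle 2, where 6.15% of all tested genes were called lower. It was 1 without LPS 3, where 12.1% were, and 1 without LPS 2, Vehicle 1 or Vehicle 3, where 6.75% to 7.25% were.

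The remaining small subunit factors were not called. Utp4, a subunit of the early-binding UtpA complex, was the most abundant of the 14, at 305, 302 and 303 CPM with LPS and 276, 267 and 276 CPM with Vehicle. Its groups were apart by a small margin, with a log2 fold change of 0.15 ± 0.07 and an adjusted p of 0.177 in edgeR's quasi-likelihood test. The other UtpA genes were Utp15 at 0.00, Wdr75 at -0.09, Heatr1 at -0.20 and Wdr43 at -0.24 on the log2 fold change scale. Rrp12, an export factor, had -0.02 and the helicase gene Ddx10 had -0.22. Late-acting Bysl, Ltv1 and Nob1, the last encoding the nuclease of the final small subunit rRNA cut, had log2 fold changes of 0.18, 0.24 and 0.38. Every LPS library lay above every Vehicle library for 5 of the 14 genes (Bysl, Ltv1, Nob1, Utp4 and Nop14), where 20.8% of all tested genes did so, and below for 3 (Wdr43, Utp20 and Tsr1), where 20% did so. Bysl shares 9.4% of its exon bases with Ccnd3 on the opposite strand, which had 59.2, 104 and 135 CPM with LPS and 94.5, 140 and 141 CPM with Vehicle.

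The large subunit assembly factors had 2 of 13 genes called lower (15.4%), 0 called higher and a median of -0.18. Over all tested genes 10.9% were called lower and 12.7% higher. Gnl3 (ENSMUSG00000042354) encodes nucleostemin, a GTP-binding protein of proliferating cells. Gnl3 had 103, 114 and 106 CPM with LPS, against 150, 148 and 148 CPM with Vehicle. Both groups were tight and apart, with a log2 fold change of -0.46 ± 0.08 and an adjusted p of 0.00443 in edgeR's quasi-likelihood test, and the call held under every alternative. Rrs1 (ENSMUSG00000061024), which in yeast helps to build the ribosomal RNA and protein particle that joins the large subunit, had 130, 124 and 127 CPM with LPS, against 171, 163 and 156 CPM with Vehicle. All LPS libraries were lower, with a log2 fold change of -0.36 ± 0.08 and an adjusted p of 0.0128 in edgeR's quasi-likelihood test. Without Vehicle 1 the adjusted p was 0.0656 and without Vehicle 2 it was 0.0534 in that test. This left 1 gene of this role called in each case, where 6.75% and 6.15% of all tested genes were called lower.

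Noc2l, an assembly factor that also binds histones, was the most abundant of this role, at 321, 340 and 348 CPM with LPS and 356, 315 and 339 CPM with Vehicle. The groups overlapped throughout, with a log2 fold change of 0.00 ± 0.08 and an adjusted p of 0.994 in edgeR's quasi-likelihood test. Noc2l shares 20.9% of its exon bases with Samd11 on the opposite strand, which stood at no more than 0.18 CPM with LPS and 0.43 CPM with Vehicle. The PeBoW genes Pes1, Bop1 and Wdr12, whose products act as a trimer in large subunit processing, had log2 fold changes of -0.07, 0.13 and -0.18, and 0 of 3 were called. The rRNA methyltransferase genes Nop2 and Ftsj3 had 0.07 and -0.18. Without LPS 3, Ftsj3 was called lower, with -0.24 and an adjusted p just below 0.05 in edgeR's quasi-likelihood test. Nop16, Noc3l, Ppan and Mrto4 had log2 fold changes of 0.02, -0.14, -0.20 and -0.22 and were not called.

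Rrp1b, a nucleolar protein of large subunit processing, lay near the threshold. Its level was 56.8, 54.8 and 47.8 CPM with LPS and 64.2, 66.6 and 65.6 CPM with Vehicle, so the groups were apart. The log2 fold change was -0.30 ± 0.10 with an adjusted p of 0.0628 in edgeR's quasi-likelihood test, and the gene was called lower under 5 of the alternatives, among them upper quartile scaling and the DESeq2 Wald test.

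**Figure D3:**
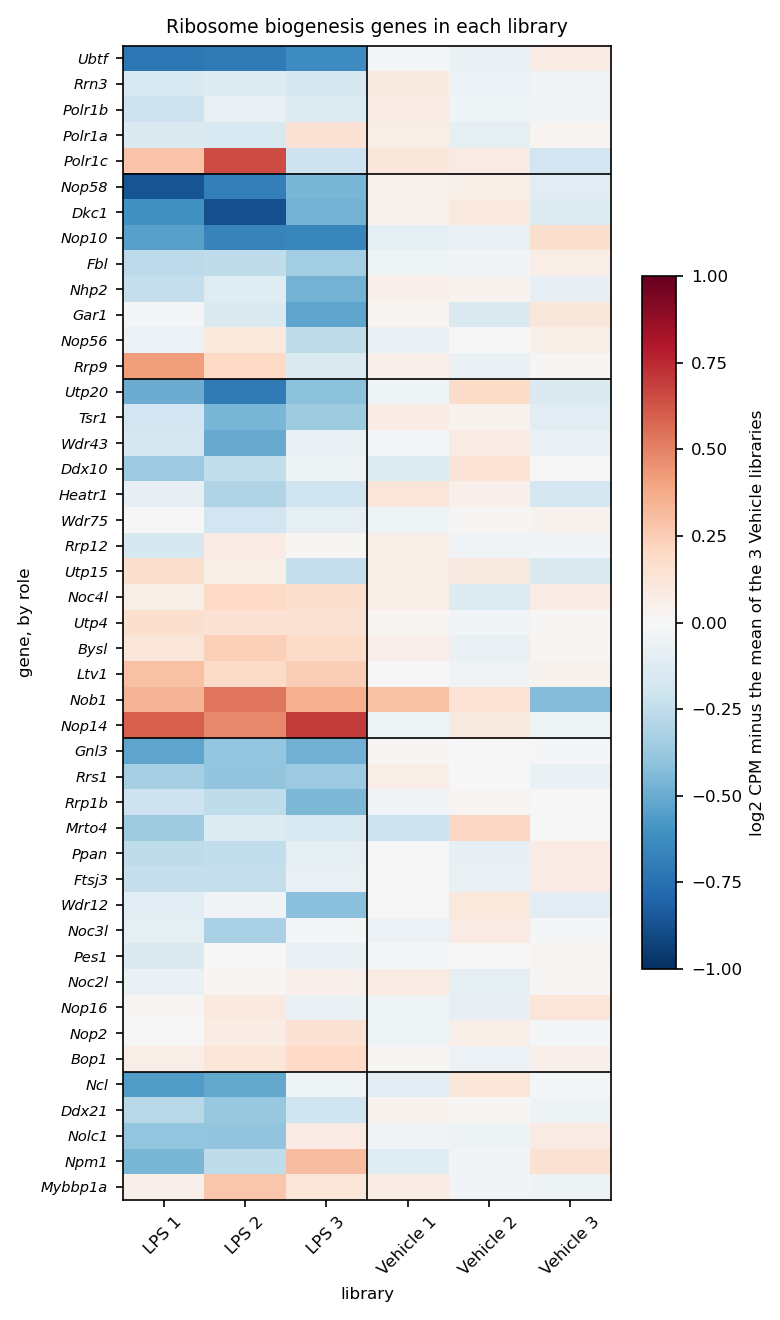
Log2 CPM of each of the 45 genes in each library minus the mean of the 3 Vehicle libraries, by role, with LPS libraries left of Vehicle libraries (blue lower, red higher). LPS 3 is not blue like LPS 1 and LPS 2 for Ncl, Nolc1 and Npm1, whereas Ubtf, Nop58, Dkc1, Nop10 and Gnl3 are blue in all 3 LPS libraries.

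Among the multifunctional nucleolar proteins, the values of Ncl, Npm1 and Nolc1 depended on LPS 3, and those of Ddx21 and Mybbp1a did not. Ncl encodes nucleolin, an RNA-binding protein of polymerase I transcription and early processing. Ncl had 1518, 1568 and 2165 CPM with LPS and 2068, 2427 and 2220 CPM with Vehicle. LPS 1 and LPS 2 lay below all Vehicle libraries and LPS 3 lay among them. Over all libraries its log2 fold change was -0.35 ± 0.14 with an adjusted p of 0.112 in edgeR's quasi-likelihood test, whereas without LPS 3 it was -0.54 ± 0.08 with an adjusted p of 0.00216.

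Npm1 encodes nucleophosmin, a histone and ribosome chaperone, and near-identical processed copies of the gene in the genome may take or give reads. Npm1 had 1268, 1456 and 2150 CPM with LPS and 1600, 1706 and 1930 CPM with Vehicle. LPS 3 was the highest of the 6 libraries and LPS 1 the lowest. Its log2 fold change was -0.10 ± 0.19 with an adjusted p of 0.743 in edgeR's quasi-likelihood test over all libraries. It was -0.36 ± 0.10 with an adjusted p of 0.0273 in that test without LPS 3, and 0.04 without LPS 1. Nolc1, a chaperone of snoRNPs, had 344, 341 and 474 CPM with LPS and 439, 433 and 477 CPM with Vehicle. It followed the same pattern, with -0.22 ± 0.13 and not called over all libraries, and -0.40 ± 0.07 with an adjusted p of 0.00569 in edgeR's quasi-likelihood test without LPS 3.

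Ddx21 (ENSMUSG00000020075), an RNA helicase of polymerase I transcription and snoRNA release, had 438, 408 and 462 CPM with LPS, against 545, 537 and 513 CPM with Vehicle. Here LPS 3 lay with the other LPS libraries, below all Vehicle libraries. The log2 fold change was -0.29 ± 0.08 with an adjusted p of 0.0362 in edgeR's quasi-likelihood test. The call was lost without LPS 1, LPS 2, Vehicle 1, Vehicle 2 or Vehicle 3, each left out singly, with adjusted p between 0.0707 and 0.128 in edgeR's quasi-likelihood test. Mybbp1a, a nucleolar protein that binds Myb and has been linked to polymerase I, had 0.15 and was not called. In this role 1 of 5 genes was called lower (20%, against 10.9% of all tested genes) and 0 higher (against 12.7%), with a median of -0.22. Without LPS 3 the count lower was 4, where 12.1% of all tested genes were called lower. It was 0 without any other single library, where 6.15% to 7.58% were.

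Summed over the 45 genes, the level was 10720, 11160 and 12470 CPM in LPS libraries and 12440, 12770 and 12720 CPM in Vehicle libraries. LPS 1 and LPS 2 lay below all Vehicle libraries, at 84.8% and 88.3% of the Vehicle mean, and LPS 3 lay at 98.6% of it. Ncl and Npm1 together held 26.0%, 27.1% and 34.6% of the summed counts in LPS libraries and 29.5%, 32.4% and 32.6% in Vehicle libraries. Without both genes the sum was 7929, 8140 and 8152 CPM with LPS and 8772, 8634 and 8571 CPM with Vehicle, and the groups were apart. By role, the snoRNP proteins summed to 82.2%, 84.4% and 75.4% of the Vehicle mean in the LPS libraries and the small subunit factors to 103%, 98.6% and 104%.

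Over the 45 genes the LPS libraries also varied more among themselves, and whether all tested genes did so was not tested. The median range of log2 CPM within a group was 0.22 over the LPS libraries and 0.15 over the Vehicle libraries, and 30 of the 45 genes had the wider range with LPS. LPS 3 was the highest of the 3 LPS libraries for 18 genes and the lowest for 11, so it was not shifted one way throughout. On a scale per length (TPM, in which counts are divided by the length of the longest annotated transcript), the mean Vehicle levels ran from 31.6 TPM for Rrp1b to 2518 TPM for Npm1, with Nhp2 next at 875 TPM and then Ncl at 643 TPM.

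**Figure D4:**
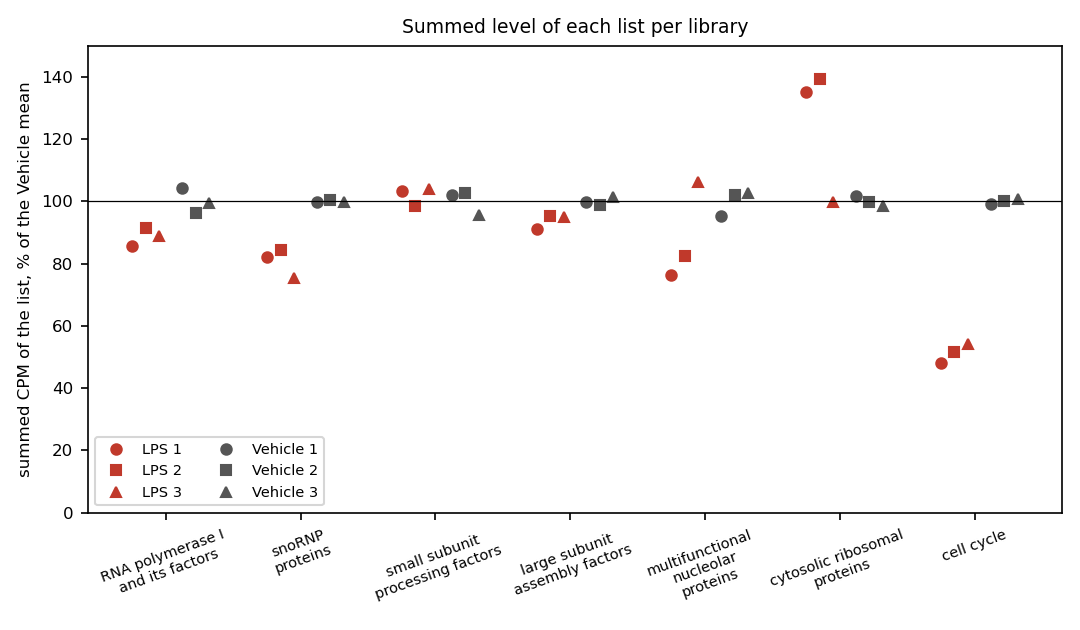
Summed CPM of each gene list in each library, as a percentage of the mean of the 3 Vehicle libraries; red symbols are LPS libraries, grey ones Vehicle libraries, and the shape gives the replicate number. LPS 3 lies apart from LPS 1 and LPS 2 for the multifunctional nucleolar proteins (106%) and the ribosomal proteins (99.9%), but not for the cell cycle genes (54.1%).

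Other lists of the same machinery had shares of called genes on both sides of the 23.6% of all tested genes. These were 6.7% of other polymerase I genes, 7.3% of other small subunit factors and 17.4% of other large subunit factors. They were 21.4% of snoRNP assembly proteins, 29.2% of exosome and RNase MRP genes and 27.3% of RNA polymerase III genes. In that order, the shares called lower were 6.7%, 4.9%, 6.5%, 7.1%, 20.8% and 22.7%, against 10.9% of all tested genes. The shares called higher were 0%, 2.4%, 10.9%, 14.3%, 8.3% and 4.5%, against 12.7%. The raised share called lower among the 45 genes was thus not seen in the other polymerase I, subunit and snoRNP assembly lists. Of 15 other polymerase I subunits and factors, 1 was called lower and 0 higher, around a median of -0.15 on the log2 scale. The gene called lower was Polr2l, for a small subunit shared by all nuclear RNA polymerases, at 22.3, 21.6 and 20.9 CPM with LPS, against 34.5, 34.7 and 42.3 CPM with Vehicle. The fall was 0.78 ± 0.13 on the log2 scale, with an adjusted p of 0.00286 in edgeR's quasi-likelihood test. The count lower was 2 without LPS 3 or without Vehicle 3, with total counts alone and in the DESeq2 Wald test, which also called 1 gene higher. Over all tested genes 7.25% to 13.8% were then called lower, and the Wald test called 14.2% higher.

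Of 41 other small subunit factors, 1 was called higher and 2 lower, with a median of -0.02. Imp4, a protein of the U3 snoRNP that helps to pair its RNA with the precursor, had 123, 124 and 142 CPM with LPS, against 201, 203 and 198 CPM with Vehicle. It was lower in every LPS library, with a log2 fold change of -0.63 ± 0.09 and an adjusted p of 0.00147 in edgeR's quasi-likelihood test. Utp23, a further processome protein, rose by 0.59 ± 0.15 on the log2 scale with an adjusted p of 0.0204 in edgeR's quasi-likelihood test. That call was lost on leaving out LPS 1, LPS 2 or any Vehicle library (adjusted p of 0.0525 to 0.0864 in that test). This left 0 genes called higher, where 7.54% to 9.07% of all tested genes were. Without LPS 3, 2 were called higher, where 14.3% of all tested genes were. Pno1, the partner of Nob1, fell by 0.27 ± 0.08 on the log2 scale with an adjusted p of 0.0496 in edgeR's quasi-likelihood test, and its call was lost without any 1 of the 6 libraries (0.0506 to 0.145). The count lower was 1 without LPS 1 or any Vehicle library and without a filter, where 6.15% to 7.58% of all tested genes were called lower.

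Of 46 other large subunit factors, 5 were called higher and 3 lower, with a median of 0.00. Nop53, which leads the exosome to the pre-ribosome, had 231, 230 and 192 CPM with LPS, against 145, 132 and 142 CPM with Vehicle. It rose by 0.64 ± 0.10 on the log2 scale, with an adjusted p of 0.00248 in edgeR's quasi-likelihood test. Zfp622, a late cytoplasmic assembly factor, rose by 0.56 ± 0.12 on the log2 scale with an adjusted p of 0.01 in edgeR's quasi-likelihood test (0.0519 without Vehicle 2). Ddx51, a helicase, had -0.54 ± 0.11 with an adjusted p of 0.00876 in edgeR's quasi-likelihood test. The count higher was 2 without Vehicle 1 or Vehicle 3, 1 without Vehicle 2 and 2 with total counts alone. Over all tested genes 8.4%, 8.56%, 7.54% and 10.1% were then called higher, in that order. The count lower was 1 without LPS 2, Vehicle 2 or Vehicle 3, where 6.15% to 7.25% of all tested genes were called lower. It was 5 without LPS 3 or with total counts alone, where 12.1% and 13.8% were.

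Among 14 proteins of snoRNP assembly and other snoRNPs, 2 were called higher and 1 lower, with a median of -0.01. Nop53, which this list also holds, was called higher, and Snu13, which binds the kink-turn of box C/D RNAs, had -0.38 ± 0.10 with an adjusted p of 0.0249 in edgeR's quasi-likelihood test. Snu13 was lower in every LPS library, at 188, 186 and 167 CPM with LPS and 216, 228 and 258 CPM with Vehicle. Its call was lost without LPS 2, Vehicle 2 or Vehicle 3 (adjusted p of 0.0540 to 0.0879 in that test). This left 0 genes called lower, where 6.15% to 7.25% of all tested genes were. Zfp330, a nucleolar zinc finger protein, rose by 0.43 ± 0.13 on the log2 scale with an adjusted p of 0.0493 in edgeR's quasi-likelihood test. That call was lost under 12 alternatives, including the other scalings (adjusted p up to 0.0876) and LPS 1, LPS 2 or any Vehicle library left out (up to 0.160), which left 1 gene called higher. With those libraries left out singly, 7.54% to 9.07% of all tested genes were called higher.

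Of 24 genes of the nuclear exosome and RNase MRP, which trim and cut the precursor, 2 were called higher and 5 lower, with a median of -0.09. C1d, an exosome cofactor, had 13.9, 13.7 and 14.3 CPM with LPS, against 25.7, 44.4 and 37.0 CPM with Vehicle. It was 2.54-fold lower in LPS libraries, with an adjusted p of 0.00208 in edgeR's quasi-likelihood test. Exosc4, an exosome ring subunit, and Rpp38, a subunit of RNase MRP, had 0.63 ± 0.13 and 0.52 ± 0.15, with adjusted p of 0.00892 and 0.0330 in edgeR's quasi-likelihood test. Rpp38 was lost as a call with total counts alone and without LPS 1, LPS 3 or any Vehicle library (adjusted p of 0.0595 to 0.113 in that test). This left 1 gene called higher, where 7.54% to 14.3% of all tested genes were. The count lower was 2 without LPS 2, 3 without Vehicle 1, 1 without Vehicle 2 and 2 without Vehicle 3. Over all tested genes 6.75%, 6.75%, 6.15% and 7.25% were then called lower, in that order.

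The factors above assemble ribosomal RNA with the cytosolic ribosomal proteins. Of 79 genes for these proteins, 14 were called higher (17.7%, where 12.7% of all tested genes were) and 0 lower, with a median log2 fold change of 0.31 and 77 genes above 0. Every LPS library lay above every Vehicle library for 21 of the 79, where 20.8% of all tested genes did so. Their summed level was 66620, 68650 and 49210 CPM in LPS libraries and 50050, 49220 and 48580 CPM in Vehicle libraries. By this sum LPS 1 and LPS 2 lay at 135% and 139% of the Vehicle mean, and LPS 3, at 99.9%, lay among the Vehicle libraries. Without LPS 3 the count called higher was 63, where 14.3% of all tested genes were called higher. It was 5 without LPS 1, 6 without LPS 2, 5 without Vehicle 1, 2 without Vehicle 2 and 9 without Vehicle 3, where 7.54% to 9.07% were. It was 9 with total counts alone, where 10.1% were. Rps10 had the largest log2 fold change among the genes called, 1.11 ± 0.17, and was high in all 3 LPS libraries, with 470, 297 and 479 CPM against 194, 190 and 194 CPM in Vehicle libraries. Rplp1, of the stalk, and Rps20 had 0.44 ± 0.07 and 0.43 ± 0.13. The adjusted p of Rps10, Rplp1 and Rps20 were 0.00348, 0.00378 and 0.0451 in edgeR's quasi-likelihood test, and that of Rps20 passed 0.05 under 3 alternatives and without LPS 1, LPS 2 or any Vehicle library (0.0644 to 0.171). Ribosomal protein genes have many near-identical pseudogenes, so their counts are uncertain. Across 16351 tested genes, the log2 CPM of LPS 3 minus the mean of LPS 1 and LPS 2 had a Pearson r of 0.086 and a Spearman rho of 0.151 with log2 transcript length. Over the 45 ribosome biogenesis genes r was 0.333 and rho 0.318. These are descriptions across genes that share the same libraries, and the part of length in what set LPS 3 apart was not tested.

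RNA polymerase III makes the small ribosomal RNA that polymerase I does not. Of its 22 subunits and factors, 5 were called lower and 1 higher, with a median of -0.06. Polr3k, a small subunit, fell by 0.62 ± 0.13 on the log2 scale, and Gtf3c6, of the initiation factor TFIIIC, fell by 0.57 ± 0.17. Polr3gl, a subunit that replaces the related Polr3g in a form of the enzyme, had 0.38 ± 0.11. Their adjusted p were 0.0102, 0.0458 and 0.0430 in edgeR's quasi-likelihood test. Polr3k was not called without Vehicle 2 (0.0519), Gtf3c6 without LPS 1, LPS 2 or any Vehicle library (0.0873 to 0.153), and Polr3gl without any 1 of the 6 libraries (0.0657 to 0.151). The count lower was 3 without Vehicle 2, where 6.15% of all tested genes were called lower. The count higher was 2 without LPS 3, where 14.3% of all tested genes were called higher. It was 0 without any 1 of the other libraries, where 7.54% to 9.07% were. Across the other alternatives the count higher lay between 0 and 3, where 7.54% to 15.2% of all tested genes were called higher.

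**Figure D5:**
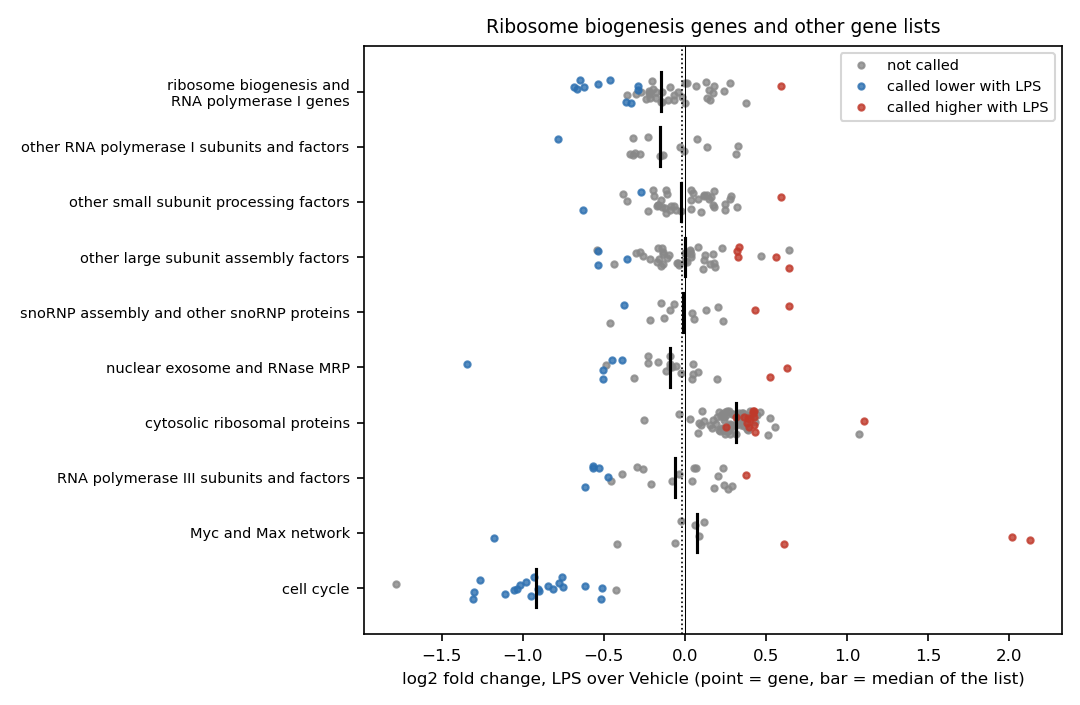
Fitted log2 fold change, LPS over Vehicle, of every tested gene of each list (points), with the list's median (bars) and the median of all 16371 tested genes (dotted line). The ribosome biogenesis genes lie to the left (median -0.15), the cytosolic ribosomal proteins to the right (0.31) and the cell cycle genes far to the left (-0.92).

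Of the cell cycle genes, 20 of 22 were called lower (90.9%, against 10.9% of all tested genes), 0 higher (against 12.7%), with a median log2 fold change of -0.92. Their summed level was 2343, 2512 and 2628 CPM in LPS libraries, against 4821, 4863 and 4885 CPM in Vehicle libraries, so here LPS 3 lay with the other LPS libraries. Rrm2, a subunit of ribonucleotide reductase, and Ccna2, cyclin A2, were 2.46-fold and 2.40-fold lower with LPS, with adjusted p of 5.08e-05 and 0.000107 in edgeR's quasi-likelihood test. Ccne2, cyclin E2, fell by 1.31 ± 0.30 with an adjusted p of 0.0191 in edgeR's quasi-likelihood test (0.0574 to 0.0784 without LPS 2, Vehicle 2 or Vehicle 3). The part of this change in the levels of the ribosome biogenesis genes was not tested.

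Myc, which with its partner Max binds E-boxes in the promoters of many ribosome biogenesis genes, was called higher with LPS. These values are those of the mouse Myc gene, and the part of the retroviral myc oncogene of BV2 cells in them, or in the total Myc level, was not tested. Myc had 5.45, 5.99 and 8.15 CPM in LPS libraries, against 1.72, 1.21 and 1.48 CPM in Vehicle libraries. All LPS libraries were higher, at a low level in both groups, with a log2 fold change of 2.13 ± 0.28 and an adjusted p of 0.00106 in edgeR's quasi-likelihood test. Max had 187, 192 and 214 CPM with LPS and 178, 251 and 190 CPM with Vehicle, with a log2 fold change of -0.06 ± 0.14 and an adjusted p of 0.787 in edgeR's quasi-likelihood test.

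Mxd1, which competes with Myc for Max and represses, had 54.0, 58.1 and 43.5 CPM with LPS, against 12.3, 12.8 and 13.3 CPM with Vehicle. It rose by 2.02 ± 0.14 on the log2 scale, with an adjusted p of 4.91e-05 in edgeR's quasi-likelihood test. Mxd3, a related gene, fell by 1.18 ± 0.25 on the log2 scale with an adjusted p of 0.0104 in edgeR's quasi-likelihood test. Of the 12 genes of this network 10 could be tested. Of these, 3 were called higher (30%, against 12.7% of all tested genes) and 1 lower (10%, against 10.9%). These counts did not change under any alternative.

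The canonical E-box CACGTG, which reads the same on both strands, was looked for from 250 bases before to 50 bases after the transcription start in the RefSeq promoter sequences of build GRCm38.p6. A sequence was matched for 40 of the 45 genes (all but Fbl, Npm1, Rrs1, Bop1 and Rrp12). The motif was found in 9 of the 40 (22.5%), in 8.09% of all 27025 genes with such a sequence and in 11.6% of the 10588 tested ones. By response, 2 of 8 genes called lower and 7 of 31 genes not called (22.6%) held it, as did 0 of 1 called higher. A match describes these letters only. The windows of the 9 genes are shown because they carry the letters that Myc and Max are known to bind, each 30 bases long, 5′ to 3′ on the strand of the gene, with the E-box in capitals.

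Utp20 (called lower), chr10:88826765-88826794, minus strand: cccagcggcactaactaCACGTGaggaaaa
Tsr1 (called lower), chr11:74898092-74898121, plus strand: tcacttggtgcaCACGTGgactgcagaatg
Rrn3 (not called), chr16:13780472-13780501, plus strand: gagcgccaaggtCACGTGcacacgcctcta
Rrn3 (not called), chr16:13780639-13780668, plus strand: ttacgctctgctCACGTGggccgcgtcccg
Utp4 (not called), chr8:106893643-106893672, plus strand: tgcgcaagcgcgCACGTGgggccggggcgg
Wdr43 (not called), chr17:71616220-71616249, plus strand: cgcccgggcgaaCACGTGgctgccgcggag
Ltv1 (not called), chr10:13193092-13193121, minus strand: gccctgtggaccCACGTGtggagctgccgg
Nop2 (not called), chr6:125131811-125131840, plus strand: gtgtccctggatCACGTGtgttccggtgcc
Pes1 (not called), chr11:3963965-3963994, plus strand: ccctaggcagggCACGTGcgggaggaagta
Mybbp1a (not called), chr11:72441347-72441376, plus strand: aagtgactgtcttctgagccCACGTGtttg

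The E-box lay before the start site in Nop2, by 60 bases, and in Rrn3, whose copies lay 215 and 48 bases before it, and within 40 bases after the start in the other 7 genes. A further palindrome of growth-related promoters, CTCGCGAG, was found in 1 of the 40, that of Tsr1, in 1.04% of all genes with a sequence and in 2.12% of the tested ones.

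Several of these genes also carry snoRNA genes inside their bounds, on the same strand. A single transcript of such a gene can yield the messenger RNA of a nucleolar protein and the guide RNA of a snoRNP. Whether each snoRNA gene lies in an intron was not tested, and some share annotated exon bases with their host. By annotated position, 8 of the 45 genes hold snoRNA genes (Nop56, Nop58, Dkc1, Wdr43, Tsr1, Gnl3, Ppan and Ncl). Of these 8, 4 were called lower and 0 higher, where 10.9% of all tested genes were called lower and 12.7% higher. Among the 4 is Tsr1, which overlaps Srr and whose call was lost without any 1 of 5 libraries. The median log2 fold change of the 8 genes was -0.34, against -0.10 for the other 37 genes, of which 6 were called lower and 1 higher. The difference between these groups of genes was not tested, and poly(A)-selected libraries do not measure the snoRNAs themselves.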

How the data were processed

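Poly(A)-selected RNA was sequenced on an Illumina NovaSeq after NEBNext Ultra library preparation, per the labels' protocols; strand is not stated. The authors deposited estimated counts per gene (expected counts, not normalised). They were whole numbers, so rounding changed nothing, and low values lay at a spacing of 3.72 to 3.83, so a value is not a read. The tools named by the submitters' processing notes, with no role or order, are DESeq2, HISAT2, StringTie 1.3.1 and Bowtie2 2.2.8. The genome build is not given in the sources used here, nor is the annotation. All 6 columns were matched by name, and 0 were left over. The table names 55141 of its 55401 identifiers through a mouse annotation.

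Genes were tested with edgeR 4.0.16 (R 4.3.3), 2-sided: filterByExpr (minimum count 10, total 15), TMM scaling, robust quasi-likelihood fit of LPS against Vehicle, Benjamini-Hochberg adjustment over all 16371 genes. The SE is the log2 fold change over the square root of F. Log2 CPM used a prior count of 2. Depth per library is 45969690 to 59023474 estimated counts. The 37 mitochondrial genes are listed at 0 throughout, so no mitochondrial share was used.

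The 45 genes and the other lists were chosen with earlier results of these data known. By the rule used, each role shows in full its most abundant gene and up to 4 called genes with the largest changes, and each other list up to 3 called genes, at least 1 each way, with Myc and Max always. Polr1c, Npm1, Nolc1, Rrp1b, Cx3cr1 and genes overlapping those of the set are described in addition, after their values were seen. Medians of lists are descriptions, and no gene set test was run. Alternatives were DESeq2 size factors, upper quartile scaling, total counts, no filter, a stricter filter (minimum count 50), the DESeq2 1.42.0 Wald test, limma 3.58.1 voom, edgeR's earlier test, a replicate block, counts divided by their spacing, and each library left out. Overlaps, snoRNA hosts and lengths came from a mouse annotation, promoter sequences from RefSeq (GRCm38.p6), and figures from matplotlib 3.10.9.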

Additional observations from a re-analysis of the deposited data

How the results depend on the processing

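Among the 45 genes, the calls of Ubtf, Nop58, Dkc1, Nop10, Gnl3 and Nop14 held under every alternative, including each library left out. Leaving out 1 library gave 5 to 13 genes called lower and 1 to 3 called higher. Over all tested genes 6.15% to 12.1% were then called lower and 7.54% to 14.3% higher. Medians of log2 fold changes then ranged from -0.16 to -0.13 (all 45), -0.17 to -0.10 (polymerase I), -0.0572 to 0.0309 (small subunit) and -0.21 to -0.11 (large subunit). With upper quartile scaling the median was -0.18 over all 45 and -0.21 for the large subunit. With total counts alone the medians were -0.24 (all 45), -0.23 (polymerase I), -0.10 (small subunit) and -0.27 (large subunit), while the median of all tested genes was -0.10, and the log2 ratio of the summed level of the 45 genes was -0.23 against -0.14 with TMM.

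Among the 45 genes and the others named with their values, the sign reversed in the following genes under some alternative, and none of these was called over all libraries. With 1 library left out, Polr1a ranged from -0.15 to 0.0086, Nop56 from -0.15 to 0.0182, Utp15 from -0.0923 to 0.10, Rrp12 from -0.0721 to 0.0377, Nop16 from -0.0291 to 0.0736, Noc2l from -0.0506 to 0.0415, Npm1 from -0.36 to 0.0384 and Max from -0.16 to 0.10. Utp15 was -0.0115 with DESeq2 size factors, -0.0114 in the DESeq2 Wald test, -0.0302 with upper quartile scaling, -0.0896 with total counts, -0.0165 with the stricter filter, -0.0055 in limma voom and -0.0092 with counts divided by their spacing. Nop16 was -0.0156 with upper quartile scaling, -0.0742 with total counts and -0.0022 with the stricter filter, and Nop2 was -0.0156 with total counts. The cause was not tested.

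The numbers of the libraries give no stated pairing, and deviations of same-numbered libraries correlated at 0.073, 0.045 and 0.058, although each library correlated best with its own number, a hint from the data only. With a replicate block, 8 genes were called lower and 1 higher, Fbl and Ddx21 losing their calls (adjusted p of 0.0597 and 0.0625 in edgeR's quasi-likelihood test), and Utp15 was -0.0042. Over all tested genes 10.9% were then called lower and 12.4% higher. The block also took the calls of Pno1 and Gtf3c6 and changed no other call of a gene named with its values. The summed level has no value for settings that change only the test. The lowest group mean of the 45 genes was 49.6 CPM. Limits are the 3 libraries per group, an unknown read depth, and unstated strand, dose and time.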
